A study of Mus musculus with 2 samples.

Results

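The genes described here are 10 integrin genes of leukaemic cells, out of 23235 genes in the expression table. They were chosen by name, as the rows whose gene symbol is Itgal, Itgam, Itgb2, Itga4, Itgb1, Itgb7, Itga2b, Itgb3, Itga5 or Itga6. All 10 were found, each in 1 row. Expression was measured by RNA sequencing in 2 acute promyelocytic leukaemias of the mouse, named APL#2 and APL#1, with 1 library each. The series describes them as clones that differ in how often their cells can start the leukaemia again, without the files or labels saying which of them has more such cells. Both leukaemias share the genotype PML-RAR KI APL, the strain C57BL/6-Ly5.2, a labelled age of 10 weeks and no treatment, although both sample titles carry the unexplained letters VEH; the source is labelled mCG-PML-RAR transgenic mice. The PML-RAR fusion protein blocks granulocyte development at the promyelocyte stage. Leukaemic cells were passed into CD45.1+ recipients that had not been irradiated and so kept their own blood cells. The dose was 200000 cells for APL#2 and 2000000 cells for APL#1. CD45.2+ cells were recovered from spleen on magnetic columns. Cell dose, recipient, library and leukaemia therefore cannot be told apart, and each leukaemia is a single clone.

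Integrins are surface receptors made of an alpha and a beta subunit, which must pair to reach the membrane. They anchor blood cells to other cells and to extracellular matrix, and they switch between a resting and an active state on signals from inside the cell. In haematopoietic cells the beta2 group serves contact with endothelium and other leukocytes, the alpha4 group serves retention in bone marrow and spleen through the ligand VCAM1, and the alpha IIb and beta3 pair is the fibrinogen receptor of platelets and is also present on early progenitors and mast cells.

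Values are FPKM, fragments per kilobase of transcript with the library's own total divided out, so levels of different genes can be compared per length of transcript. The values summed to 35239.9 FPKM in APL#2 and 34893.9 FPKM in APL#1. From the steps between low values, a single fragment per kb was estimated to equal 0.0178 FPKM in APL#2 and 0.0192 FPKM in APL#1. Differences are given as plain FPKM ratios of APL#2 over APL#1 and, for calls, as the log2 difference after adding a pseudocount of 1 FPKM to each value, which understates low genes. A gene was called when this measure reached 2-fold, and genes with a mean of at least 1 FPKM are termed measured. With 1 library per leukaemia no test was run and no difference has a replicate check. The promyelocyte identity of the cells was checked with 8 markers, of which 7 were in the table and all 7 were measured. Mpo, myeloperoxidase, stood at 157.3 FPKM in APL#2 and 661.8 FPKM in APL#1, and Ptprc, which encodes CD45, at 4.10 FPKM in APL#2 and 4.66 FPKM in APL#1. Elane, neutrophil elastase, stood at 5.01 FPKM in APL#2 and 32.4 FPKM in APL#1. Cebpe, a granulocyte transcription factor, stood at 7.40 FPKM in APL#2 and 8.20 FPKM in APL#1. Gfi1 stood at 3.49 FPKM in APL#2 and 5.99 FPKM in APL#1, and Prtn3 at 2.45 FPKM in APL#2 and 3.45 FPKM in APL#1. Only Ctsg, cathepsin G, was higher in APL#2, at 8.99 FPKM there and 7.89 FPKM in APL#1. The 7 markers summed to 188.7 FPKM in APL#2 and 724.3 FPKM in APL#1, and the 6 without Mpo to 31.4 FPKM in APL#2 and 62.6 FPKM in APL#1. Of the 7, 3 had a log2 difference above the median difference of all measured genes, which was -0.17, and 4 had one below it. The part of these differences in the integrin values was not tested.

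The integrin genes differed in opposite directions between the leukaemias. Itgal was lower in APL#2 by a plain ratio of 0.349 and Itga4 by 0.623, whereas Itga2b, Itgb2, Itgb7 and Itgb3 were higher in APL#2 by ratios between 1.69 and 1.84. Itga6 had a ratio of 1.85 on too few fragments to show a difference. Itgb1, Itga5 and Itgam stood within 1.5-fold. Of the 10 genes, 6 were measured, 0 of them were called higher and 1, Itgal, was called lower. Across all 4100 measured genes, 2.1% were called higher and 2.44% lower, and 30.1% had a plain ratio of at least 1.5 in either direction, as did 4 of the 6 measured integrin genes. The median log2 difference of the 6 measured integrin genes was 0.05, against -0.17 for all measured genes, whose median plain ratio was 0.833. The summed level of the 10 genes was 14.0 FPKM in APL#2 and 15.0 FPKM in APL#1, a ratio of 0.932.

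**Figure D1:**
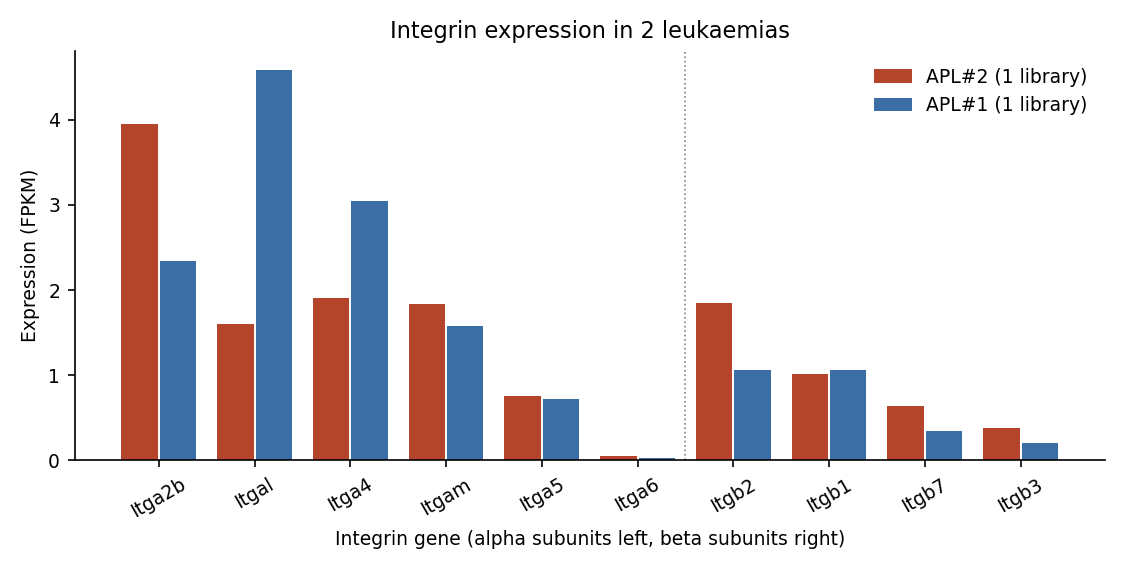
Expression in FPKM of the 10 integrin genes, alpha subunits to the left of the dotted line and beta subunits to the right, with 1 bar for the single library of each leukaemia and no error bars. Itga2b has the highest bar in APL#2 (3.95 FPKM) and Itgal the highest in APL#1 (4.58 FPKM).

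Promoter sequences are shown for 3 of these genes, to be read side by side. By plain ratio, Itga2b was higher in APL#2, Itga4 was lower and Itgam stood within 1.5-fold. On the log2 scale relative to the median of all measured genes, Itga4 lay at -0.31 and Itgam at 0.30. RefSeq sequence for GRCm38.p6 was matched for 6 of the 10 genes. The 250 bases before the annotated gene start are printed 5′ to 3′ on the gene's strand, at chr11:102469884-102470133 (minus strand) for Itga2b, chr2:79255176-79255425 (plus strand) for Itga4 and chr7:128062390-128062639 (plus strand) for Itgam. Capitals mark matches on either strand to any of 3 short motifs. The Ets motif searched was GAGGAA, a form that PU.1 and some other Ets factors can recognise, and it is called the Ets core here. Shorter or other Ets sites were not searched and are not marked. The GATA core, recognised by the GATA factors of blood progenitors, was AGATAA. The RUNX core, recognised by factors such as RUNX1, was TGTGGT. No letters of one motif overlapped those of another in these windows.
Itga2b: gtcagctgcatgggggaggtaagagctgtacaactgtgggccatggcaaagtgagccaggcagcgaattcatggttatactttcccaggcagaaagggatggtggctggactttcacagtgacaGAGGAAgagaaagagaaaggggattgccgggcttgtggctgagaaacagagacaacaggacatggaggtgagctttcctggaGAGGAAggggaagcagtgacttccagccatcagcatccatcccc
Itga4: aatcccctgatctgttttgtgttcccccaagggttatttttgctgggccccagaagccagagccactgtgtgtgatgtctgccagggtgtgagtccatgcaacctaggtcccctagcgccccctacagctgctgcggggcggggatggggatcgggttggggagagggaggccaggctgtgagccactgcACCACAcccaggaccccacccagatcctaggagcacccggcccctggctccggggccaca
Itgam: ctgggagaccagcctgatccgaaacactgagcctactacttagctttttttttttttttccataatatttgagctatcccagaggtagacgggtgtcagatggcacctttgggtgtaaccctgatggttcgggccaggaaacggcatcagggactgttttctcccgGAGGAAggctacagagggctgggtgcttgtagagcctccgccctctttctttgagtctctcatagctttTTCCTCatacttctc
The Ets core occurred 2 times in the Itga2b window, with first bases 126 and 44 before the start, and 2 times in the Itgam window, at 84 and 15 before it. It had 0 matches in the Itga4 window, which held 1 match to the RUNX core with its first base 60 before the start. The GATA core had 0 matches in all 3. Of 32851 upstream windows of the same length in the table, 23.3% held the Ets core, 9.99% the GATA core and 14% the RUNX core, and a match shows letters only and no binding. Itga2b and Itgam, with 2 Ets core matches each, had plain ratios of 1.69 and 1.16. Of the matched genes whose windows are not printed, Itgb1 and Itga5 held 1 Ets core match each, with plain ratios of 0.955 and 1.04. Itgb7, with a plain ratio of 1.83, held no match to any of the 3 motifs.

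The beta2 integrins bind ICAM proteins, complement fragments and fibrinogen. Itgal encodes the alpha L subunit, which pairs with beta2 as LFA-1, the leukocyte receptor for ICAM1. It lies on chromosome 7 (mm9, 134439773 to 134478651). Itgal stood at 1.60 FPKM in APL#2 and 4.58 FPKM in APL#1. Itgal ranked 2382 among all genes in APL#2 and 918 in APL#1. The difference rests on about 469 fragments in APL#2 and 1245 in APL#1, and the 95% interval of the ratio from counting alone was 0.313 to 0.388. In the authors' deposited table the p-value for Itgal was 0.0732 and the q-value 0.999997, and the standard error that their test implies was 0.85 on the log2 scale. The log2 difference used for calls was -1.10. Once the median of all measured genes was subtracted it was -0.93, which is short of 2-fold on this scale with its pseudocount of 1. Without a pseudocount, the plain ratio of Itgal was 0.349, against a median of 0.833 for all measured genes.

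Itgam encodes the alpha M subunit, CD11b, which pairs with beta2 as the complement receptor Mac-1 of maturing granulocytes and monocytes. It lies 728 kb from Itgal (chromosome 7, mm9, 135206153 to 135262005). Itgam stood at 1.83 FPKM in APL#2 and 1.58 FPKM in APL#1, and the counting interval of the ratio was 1.01 to 1.33. The ratio of Itgal to Itgam was therefore 0.872 in APL#2 and 2.90 in APL#1. The other alpha partners of beta2 were near the floor: Itgax stood at 0.0212 FPKM in APL#2 and 0.0209 FPKM in APL#1, and Itgad at 0.0258 FPKM in APL#2 and 0.0160 FPKM in APL#1.

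Itgb2 encodes CD18, the common beta subunit of this group (chromosome 10, mm9, 76993092 to 77028419). Itgb2 stood at 1.85 FPKM in APL#2 and 1.07 FPKM in APL#1, a ratio of 1.74 with a counting interval of 1.43 to 2.10. The beta subunit and the sum of its 4 alpha partners thus differed in opposite directions. The alpha sum was 3.48 FPKM in APL#2 and 6.20 FPKM in APL#1, a ratio of 0.561. Alpha transcripts exceeded Itgb2 by 1.88-fold in APL#2 and by 5.82-fold in APL#1.

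The alpha4 subunit pairs with beta1 as VLA-4, which binds VCAM1 and fibronectin, or with beta7, which binds MAdCAM1 in gut and VCAM1. Itga4 lies on chromosome 2 (mm9, 79095582 to 79269145) and stood at 1.90 FPKM in APL#2 and 3.05 FPKM in APL#1. The ratio of 0.623 had a counting interval of 0.576 to 0.675, on about 1046 fragments in APL#2 and 1551 in APL#1. In the authors' deposited table the p-value for Itga4 was 0.246. Itga4 was the second highest of the 10 genes in both leukaemias.

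Itgb1, the most widely shared beta subunit (chromosome 8, mm9, 131209553 to 131257479), stood at 1.02 FPKM in APL#2 and 1.07 FPKM in APL#1. Its ratio was 0.955 with a counting interval of 0.787 to 1.16, which includes both 1 and the all-gene ratio of 0.833. No difference of Itgb1 from either was therefore detectable from counting. Its log2 difference was -0.03 on the deposited scale and 0.14 relative to the median of all measured genes, so its sign depends on the scaling. Itgb7 (chromosome 15, mm9, 102046425 to 102062366) stood at 0.635 FPKM in APL#2 and 0.347 FPKM in APL#1, a ratio of 1.83 with a counting interval of 1.29 to 2.67. The ratio of Itga4 to Itgb7 was 2.997 in APL#2 and 8.80 in APL#1, and that of Itga4 to Itgb1 was 1.87 in APL#2 and 2.87 in APL#1. Itgae, the other partner of beta7, stood at 0.00896 FPKM in APL#2 and 0.00482 FPKM in APL#1.

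Itga5 encodes the alpha subunit of the main fibronectin receptor, paired with beta1, and lies 1.11 Mb from Itgb7 (chromosome 15, mm9, 103174717 to 103197179). It stood at 0.754 FPKM in APL#2 and 0.723 FPKM in APL#1, a ratio of 1.04 with a counting interval of 0.841 to 1.29. The ratio of Itga5 to Itgb1 was likewise close, at 0.741 in APL#2 and 0.679 in APL#1. Itga6, of the laminin receptors, lies on chromosome 2 (mm9, 71625139 to 71694815) and was the lowest of the 10. It stood at 0.0566 FPKM in APL#2 and 0.0306 FPKM in APL#1, on about 14 fragments in APL#2 and 7 in APL#1. The counting interval of its ratio ran from 0.698 to 5.41, so no difference was detectable at this depth.

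Itga2b encodes CD41, the alpha IIb subunit, and Itgb3 its partner beta3, and they lie 2.14 Mb apart on chromosome 11 (mm9, 102314610 to 102331197 for Itga2b and 104469313 to 104531785 for Itgb3). Itga2b stood at 3.95 FPKM in APL#2 and 2.34 FPKM in APL#1, a ratio of 1.69 with a counting interval of 1.498 to 1.91. It was the highest of the 10 in APL#2 and the third highest in APL#1. Itgb3 stood at 0.380 FPKM in APL#2 and 0.207 FPKM in APL#1, a ratio of 1.84 with a counting interval of 1.35 to 2.55. The ratio of Itga2b to Itgb3 was 10.4 in APL#2 and 11.3 in APL#1, so both subunits were higher in APL#2 by a similar factor. In the authors' deposited table the p-value was 0.309 for Itga2b and 0.424 for Itgb3.

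Markers of platelets and megakaryocytes were near absent beside these levels. Of 12 such markers, 11 were under 0.1 FPKM in both libraries, and the list summed to 0.236 FPKM in APL#2 and 0.1252 FPKM in APL#1. Pf4, Ppbp, Gp6, Gp9, Treml1, Tubb1 and Vwf were listed at 0 in both. Clec1b was the highest, with 0.117 FPKM in APL#2 and 0.0402 FPKM in APL#1. Of 7 mast cell and basophil markers, 4 were measured, of which 2 were called lower and 1 higher. The shares over all measured genes were 2.44% lower and 2.1% higher. Cpa3, the mast cell carboxypeptidase, stood at 7.09 FPKM in APL#2 and 41.3 FPKM in APL#1, and Hdc, the enzyme that makes histamine, at 1.24 FPKM in APL#2 and 7.75 FPKM in APL#1. Mcpt8, a basophil protease, stood at 8.04 FPKM in APL#2 and 1.02 FPKM in APL#1. Gata2, a transcription factor of progenitors and mast cells, stood at 1.83 FPKM in APL#2 and 2.998 FPKM in APL#1, while Fcer1a and Prss34 were listed at 0 in both. The list summed to 18.4 FPKM in APL#2 and 53.2 FPKM in APL#1, and its part in the Itga2b, Itgb3 and Itgb7 values was not tested. In bulk RNA, fewer cells of a type and less RNA per cell cannot be told apart.

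Lymphocyte markers were low in both libraries. The T and B cell lists summed higher in APL#2, as Itgb7 did, and the NK cell list summed lower. The 10 T cell markers summed to 0.343 FPKM in APL#2 and 0.0526 FPKM in APL#1, and all 10 were under 0.1 FPKM in both; Cd3e, a chain of the T cell receptor complex, stood at 0.0131 FPKM in APL#2 and was listed at 0 in APL#1. The 8 B and plasma cell markers in the table summed to 0.513 FPKM in APL#2 and 0.249 FPKM in APL#1, with Cd79a highest in both, at 0.158 FPKM in APL#2 and 0.0934 FPKM in APL#1. The 6 NK cell markers summed to 0.0275 FPKM in APL#2 and 0.0382 FPKM in APL#1. The part of these cells in the Itgb7 value was not tested. The 7 dendritic cell markers summed to 0.0609 FPKM in APL#2 and 0.0300 FPKM in APL#1, and the 6 erythroid markers in the table to 0.0243 FPKM in APL#2 and 0.0476 FPKM in APL#1. The 8 markers of endothelium and stroma summed to 2.73 FPKM in APL#2 and 4.94 FPKM in APL#1. Nearly all of this sum came from 2 genes. Pecam1, of endothelium and leukocytes, gave 1.62 FPKM in APL#2 and 3.62 FPKM in APL#1. Pdgfrb gave 1.11 FPKM in APL#2 and 1.30 FPKM in APL#1. Itgal, present on lymphocytes as well, was lower in APL#2, and the part of lymphocytes in its value was not tested.

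**Figure D2:**
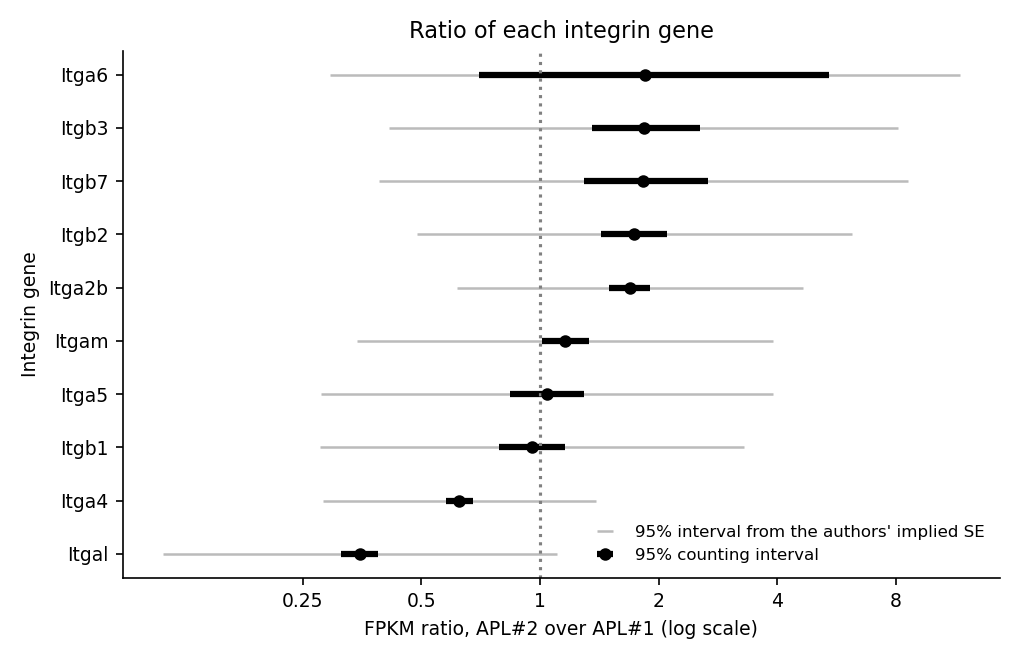
FPKM ratio of APL#2 over APL#1 for each integrin gene on a log axis, with the 95% interval from counting fragments (black) and the wider 95% interval that the standard error of the authors' deposited test implies (grey). The counting interval lies off 1 for 7 of 10 genes, and the grey interval for 0 of 10.

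The size of the error decides how firmly these ratios can be read. Counting alone places 7 of the 10 ratios off 1, and it leaves out all variation between mice, recipients and libraries. The count depends on the reference of 1. The median ratio of all measured genes was 0.833, and the interval of Itga5, 0.841 to 1.29, includes 1 but lies above 0.833. The authors' deposited table implied standard errors of 0.59 to 1.36 on the log2 scale, and with them 0 of 10 ratios lay off 1. The smallest p-value among the 10 in the authors' deposited table was 0.0732 and the smallest q-value 0.999997. In the whole of the authors' deposited table, 0.968% of genes had a p-value of at most 0.05 and 0.0473% a q-value of at most 0.05.

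Ordered by level, APL#2 ran Itga2b, Itga4, Itgb2, Itgam, Itgal, Itgb1, Itga5, Itgb7, Itgb3 and Itga6. Itga4 exceeded Itgb2 by 1.03-fold and Itgb2 exceeded Itgam by 1.01-fold, steps whose counting intervals include 1, as did that from Itga5 to Itgb7 (1.19-fold). In APL#1 the order was Itgal, Itga4, Itga2b, Itgam, Itgb2, Itgb1, Itga5, Itgb7, Itgb3 and Itga6, and Itgb2 and Itgb1 did not differ beyond counting error (1.07 FPKM each). The last 5 places from Itgb1 to Itga6 were in the same order in both leukaemias.

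The make-up of the integrin transcripts differed between the leukaemias. Among the 6 alpha genes, Itga2b made up 39.1% of the summed FPKM in APL#2 and 19.0% in APL#1, and Itgal made up 15.8% in APL#2 and 37.2% in APL#1. Itga4 made up 18.9% in APL#2 and 24.8% in APL#1, and Itgam 18.1% in APL#2 and 12.9% in APL#1. The alpha sum was 10.1 FPKM in APL#2 and 12.3 FPKM in APL#1. Among the 4 beta genes, Itgb2 made up 47.6% in APL#2 and 39.7% in APL#1, and Itgb1 26.2% in APL#2 and 39.7% in APL#1. The beta sum was 3.88 FPKM in APL#2 and 2.69 FPKM in APL#1, a ratio of 1.45 against 0.820 for the alpha sum.

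**Figure D3:**
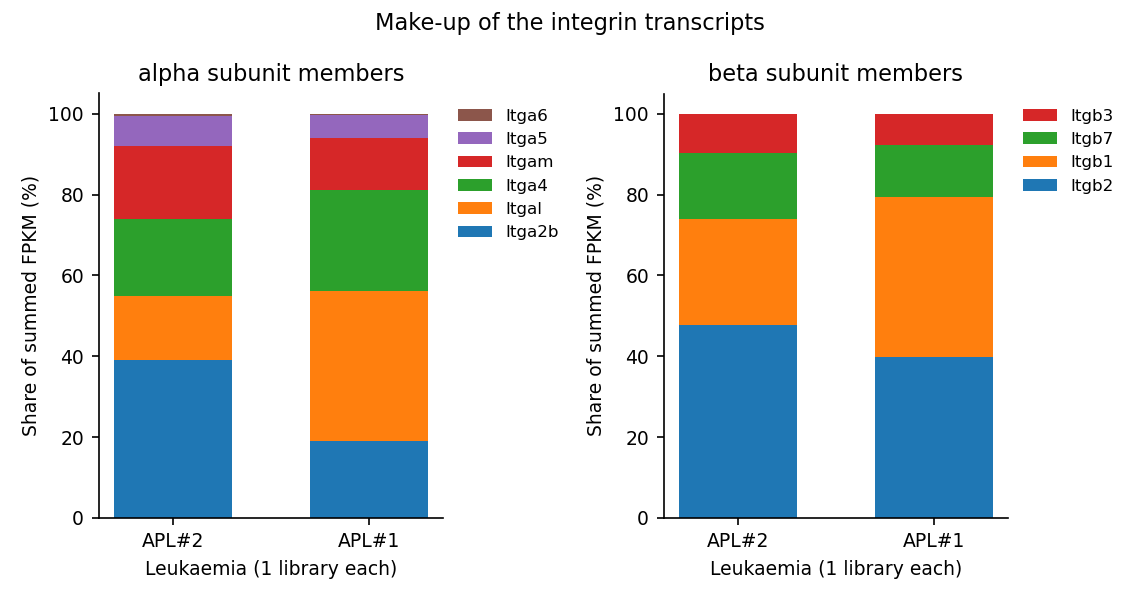
Share of the summed FPKM taken by each of 6 alpha genes (left) and 4 beta genes (right) in the single library of each leukaemia. Itga2b takes 39.1% of the alpha sum in APL#2 and 19.0% in APL#1, and Itgal 15.8% in APL#2 and 37.2% in APL#1.

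Position on the chromosome was compared with measured genes within 5 Mb. All 54 neighbours of Itgal with a value in both libraries had a higher plain ratio than Itgal, at a median of 0.779, and their lowest was 0.427. Of 53 neighbours of Itgam, 48 had a lower ratio than Itgam, and these windows overlap. The 71 neighbours of Itgb2 all had a lower ratio than Itgb2, with a median of 0.731, and 66 of 67 neighbours of Itga2b had a lower one than Itga2b. On chromosome 2 the neighbours themselves were low in APL#2. The 10 neighbours of Itga6 had ratios of 0.312 to 0.514, and the 3 of Itga4 had ratios of 0.329 to 0.409. These windows overlap as well, and Gm6793 and Hnrnpa3 are counted in both. Itga4, lower in APL#2 than the typical gene, was thus higher than each of its 3 neighbours. The plain ratio of Itga6 was higher than that of all 10 of its neighbours, on about 14 fragments in APL#2 and 7 in APL#1. Itgav, the alpha V subunit, also lies on chromosome 2 and stood at 0.0874 FPKM in APL#2 and 0.102 FPKM in APL#1.

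**Figure D4:**
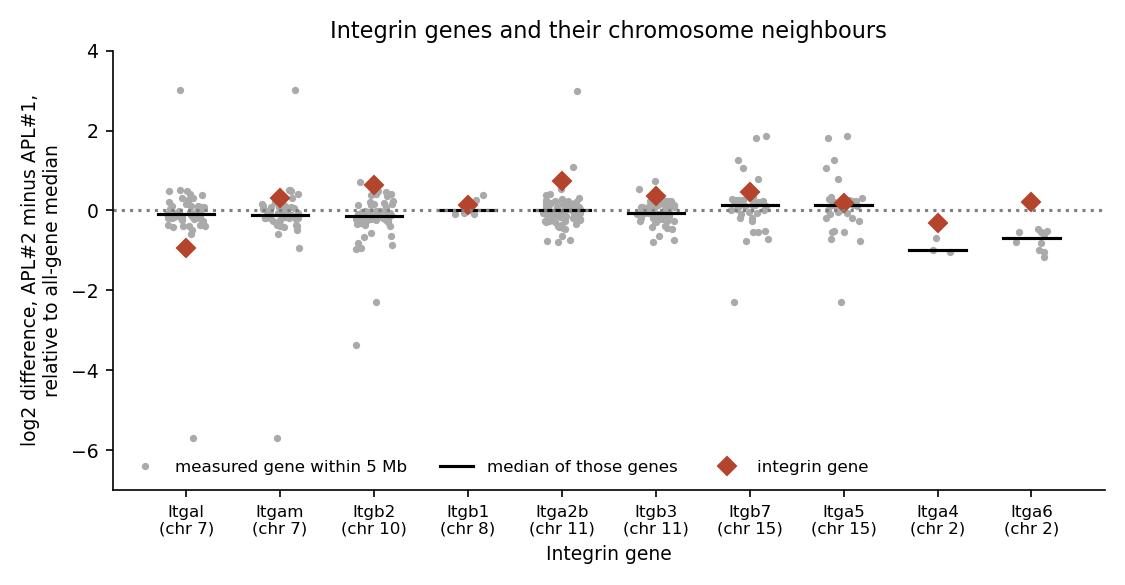
Log2 difference of APL#2 minus APL#1 with a pseudocount of 1, relative to the median of all measured genes, for each integrin gene (diamond) and for the measured genes within 5 Mb (points, median as a bar). Itga4 on chromosome 2 stands above its 3 neighbours, whose median is -0.997; Itga6 is so low that the pseudocount places it close to 0.17, where a gene at 0 in both libraries falls, and its place in the plot carries no information on its ratio.

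The other 18 integrin genes were weakly expressed, and 0 of them were measured. Of these, 14 were under 0.1 FPKM in both libraries, and their sum was 1.59 FPKM in APL#2 and 1.56 FPKM in APL#1. The 3 highest, named after their values were seen, were Itgb5, Itga9 and Itgb2l. Itgb5, which pairs with alpha V, stood at 0.788 FPKM in APL#2 and 0.542 FPKM in APL#1. Itga9, which pairs with beta1, stood at 0.319 FPKM in APL#2 and 0.317 FPKM in APL#1. Itgb2l, a relative of Itgb2, stood at 0.201 FPKM in APL#2 and 0.435 FPKM in APL#1.

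Most integrin ligand genes were under 1 FPKM in the leukaemic cells, with 8 of 38 listed genes measured, 0 called higher and 1 lower. Across all measured genes, 2.1% were called higher and 2.44% lower. The list median was -0.22, against -0.17 for all measured genes. Thbs4, a secreted thrombospondin, was the 1 called lower, with 10.2 FPKM in APL#2 and 46.7 FPKM in APL#1. The authors' deposited test, with 1 library per leukaemia, gave Thbs4 a p-value of 1.1e-05 and a q-value of 0.0164. Vcam1, the ligand of alpha4 integrins, stood at 7.47 FPKM in APL#2 and 3.94 FPKM in APL#1, the reverse of its receptor gene Itga4. Spp1, osteopontin, stood at 1.72 FPKM in APL#2 and 0.664 FPKM in APL#1, and Emilin1, a matrix glycoprotein, at 1.33 FPKM in APL#2 and 2.49 FPKM in APL#1. Vcam1 is also a marker of spleen macrophages; the 9 other macrophage and monocyte markers in the table summed to 1.80 FPKM in APL#2 and 1.74 FPKM in APL#1. Of these, Cd68, a lysosomal protein of macrophages, was the 1 measured, with 1.01 FPKM in APL#2 and 1.54 FPKM in APL#1. Emr1, a macrophage receptor, differed in the direction of Vcam1, at 0.537 FPKM in APL#2 and 0.0230 FPKM in APL#1. C1qc, Csf1r and Mrc1 were also higher in APL#2, at levels below that of Emr1 there. C1qa and C1qb, like Cd68, were lower in APL#2, and Marco and Spic were listed at 0 in both. The part of macrophages and monocytes in the Vcam1 value was not tested.

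Genes that switch integrins on held the 2 partner genes with the largest differences toward APL#2 on the scale used for calls, Fermt3 and Rasgrp2. Of 37 listed activators and adaptors, 36 were in the table and 20 were measured, with a list median of -0.06. Of the 20, 1 was called higher and 0 lower, beside shares of 2.1% and 2.44% over all measured genes. Fermt3, kindlin-3, which binds beta subunit tails and is needed for integrin activation in blood cells, stood at 5.64 FPKM in APL#2 and 2.21 FPKM in APL#1, a ratio of 2.55. Rasgrp2, the exchange factor that activates Rap1 upstream of integrins, stood at 5.15 FPKM in APL#2 and 2.20 FPKM in APL#1, a ratio of 2.34. Slc3a2, which encodes the CD98 heavy chain that binds beta1, stood at 3.13 FPKM in APL#2 and 1.90 FPKM in APL#1. All 3 lie on chromosome 19, whose 134 measured genes had a median ratio of 1.63. Cib1, which binds the tail of alpha IIb, stood at 1.53 FPKM in APL#2 and 2.57 FPKM in APL#1. In the authors' deposited table the p-value of Fermt3 was 0.0843 and that of Rasgrp2 0.136.

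Genes that act downstream of integrins stood close to the typical gene. Of 53 listed signalling and focal adhesion genes, 29 were measured, with a list median of -0.15 against -0.17 for all measured genes. Of the 29, 0 were called higher and 0 lower, near the shares of 2.1% and 2.44% over all measured genes. Rsu1, which binds the integrin-linked kinase complex, stood at 16.7 FPKM in APL#2 and 27.5 FPKM in APL#1. It lies on chromosome 2, whose 275 measured genes had a median ratio of 0.75, against 0.833 for all measured genes. Nedd9, a docking protein of focal adhesions, stood at 2.01 FPKM in APL#2 and 1.06 FPKM in APL#1. Ilk, the integrin-linked kinase, stood at 2.55 FPKM in APL#2 and 3.86 FPKM in APL#1, and Actn4, an actin crosslinker, at 3.87 FPKM in APL#2 and 5.65 FPKM in APL#1.

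Tetraspanins, which hold integrins in membrane clusters, had 6 of 8 listed genes measured. Of the 6, 5 had a log2 difference above the median of all measured genes. Their own median difference was 0.21 and 0 were called. Cd9 lies on chromosome 6, whose 234 measured genes had a median ratio of 1.06, against 0.833 for all measured genes. Cd9 stood at 3.34 FPKM in APL#2 and 1.59 FPKM in APL#1, and Cd81 at 3.77 FPKM in APL#2 and 2.17 FPKM in APL#1. Cd63 went the other way, at 37.2 FPKM in APL#2 and 51.8 FPKM in APL#1. Cd37 differed least of those named, at 11.4 FPKM in APL#2 and 9.53 FPKM in APL#1.

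**Figure D5:**
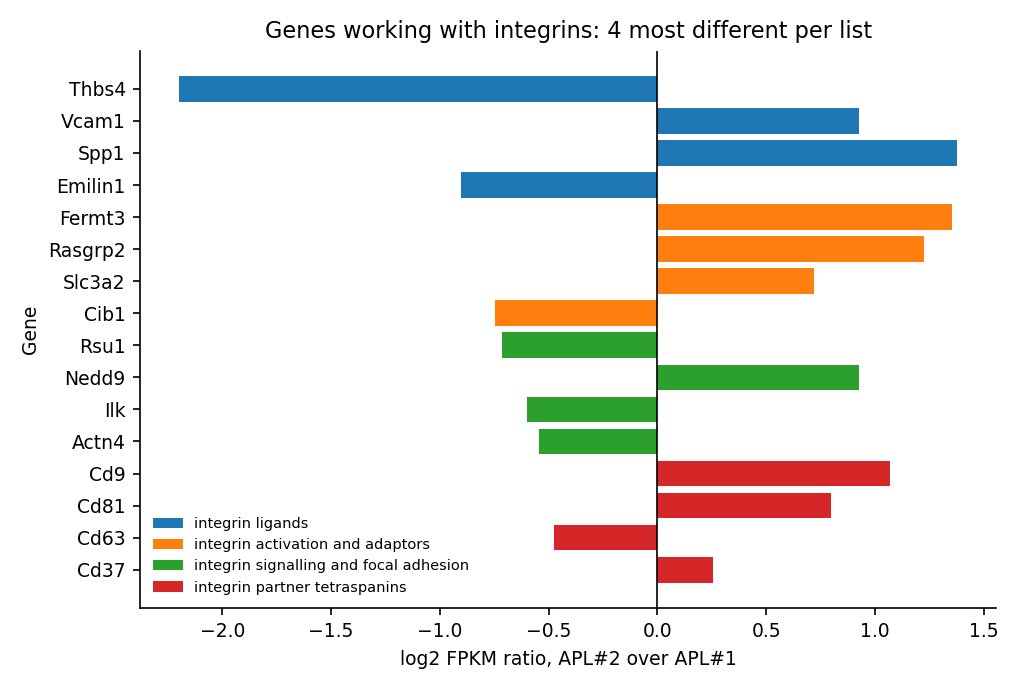
Log2 of the plain FPKM ratio, APL#2 over APL#1, for the 4 measured genes with the largest difference in each of 4 lists of genes that work with integrins. Fermt3 and Rasgrp2 reach ratios of 2.55 and 2.34, and Thbs4 extends furthest to the left, with 10.2 FPKM in APL#2 and 46.7 FPKM in APL#1.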

How the data were processed

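RNA of CD45.2+ cells was sequenced in 1 library of APL#2 and 1 of APL#1, groups taken from the sample descriptions. Cuffdiff, Cufflinks, TopHat2 2.0.10 and the build mm9 are listed, per the submitters' processing notes; the notes assign no roles, and annotation, strand, filters and normalization are not given there. The value columns deposited by the authors were read as FPKM from the table's Cuffdiff layout, since its header names no unit. The test statistic, a score per gene, and the p-value and q-value deposited by the authors are per the file headers; the sign of the statistic runs opposite to the fold. The implied standard error is the log2 ratio divided by that statistic.

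The pseudocount was 1, the filter a mean of 1 FPKM, and the call 2-fold. Fragments were estimated from the commonest APL#1 to APL#2 ratio of low genes (1.08, in 305 of 3168 genes under 0.2 FPKM) and 69 genes with 1 transcript, using transcript lengths from GENCODE M21; the implied scaling totals were 56300000 fragments for APL#2 and 52000000 for APL#1, far above the roughly 2800000 and 2910000 fragments that the same estimate places in listed genes with a known length. The steps were tested on simulated data. Intervals are exact (Clopper-Pearson), from rounded fragments, and cover counting error only. Python 3.11.15, pandas 2.3.3 and scipy 1.17.1 were used. The 10 genes and the lists were chosen with earlier results of these data known. Named were all 10 members, other integrin genes with a mean of at least 1 FPKM, and the 4 most different measured genes of each partner list. No other integrin gene reached that mean, and Itgax, Itgad, Itgae, Itgav, Itgb5, Itga9 and Itgb2l are given outside this rule, as partners of members or for their level. With 2 libraries no gene was named for a pattern like a member's. From the marker lists, 1 gene was left out of all counts and sums and is not reported here; of the markers kept, those named in the text were chosen after their values were seen. Promoter sequence came from RefSeq GRCm38.p6, and gene positions are those of the deposited table, in mm9. Alternatives were other pseudocounts, filters and scalings.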

Additional observations from a re-analysis of the deposited data

How the results depend on the processing

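No paired analysis was possible because each leukaemia has 1 library, and for the same reason no replicate could be left out. Each of the 10 member differences was recomputed under 6 settings of pseudocount and scaling (60 values), and 57 stayed on the same side of 2-fold. The other 3 were those of Itgal, at -0.93 after centring on the all-gene median, -0.97 after rescaling to the same upper quartile and -0.98 after rescaling to the same sum without the 1% highest genes, so the count of members called lower was 0 under these 3 settings, against 1 as reported. The 3 settings kept the pseudocount of 1, and no smaller pseudocount was combined with them. They raised the log2 values of all genes together. The median difference of the members was then 0.22, 0.18 and 0.16, against 0.05 as reported. Itgb1 was the 1 member whose sign changed. The count of partner genes called higher was 1 as reported (2.1% of all measured genes), 4 with a pseudocount of 0.1 (3.22%), 4 with 0.01 (3.37%), 2 after centring (2.93%), 4 after the upper quartile rescaling (3.17%), 4 after the trimmed sum (2.945%), 2 with no filter (0.413%) and 2 with a filter of 0.5 FPKM (1.44%), so the share over all genes moved as well. The count called lower was 1 under all 8 alternatives. Without Itgb2 in the beta sum, Itgb1 made up 50.1% in APL#2 and 65.8% in APL#1, Itgb7 31.2% in APL#2 and 21.4% in APL#1, and Itgb3 18.7% in APL#2 and 12.8% in APL#1, since the sum is smaller. Depth limits Itga6 most, and the absence of replicates limits every difference.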

Other observations

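Pecam1 and Emr1 are given as values only: they are marker genes read to check cell types, were named after their values were seen, and did not reach 2-fold on the scale used for calls. Pecam1, which encodes the adhesion receptor CD31 of endothelium and leukocytes, stood at 1.62 FPKM in APL#2 and 3.62 FPKM in APL#1, while the endothelial genes Kdr and Tek were listed at 0 in both. Emr1, which encodes the macrophage receptor F4/80, stood at 0.537 FPKM in APL#2 and 0.0230 FPKM in APL#1.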
